A study of Mus musculus with 16 samples.

Results

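The red cell microRNAs miR-451, miR-144 and miR-486 (mmu-miR-451, mmu-miR-144 and mmu-miR-486 on the array) were followed in injured and uninjured carotid arteries of mice, and set against miR-223, a microRNA of white blood cells. The members were taken by name, and all 3 had probes among the 611 mouse microRNAs (miRNAs) of the array. The arteries came from female C57BL/6 mice lacking apolipoprotein E (ApoE-/-), which are prone to atherosclerosis, and every group, the control included, shared this genotype and a western-type diet. In the injured groups a wire had been passed through the carotid artery, and RNA was prepared 1, 7, 14 or 28 days afterwards, as 3 artery samples at each of the first 3 times and 4 at the last. Uninjured carotid arteries (n = 3) were the control. The labels give an age of 8 weeks for the day 1 mice and of 6 to 8 weeks for all others, the uninjured ones included. From each artery sample 700 ng of total RNA received the dye Cy3 and went onto 1 Agilent array. Whether the arteries of a group came from separate mice and whether the vessels had been flushed of blood is not given in the sources used here, so p-values measure the spread between these samples.

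Mature red cells have no nucleus, but they keep a large stock of microRNA, and miR-451 and miR-144 are its best known components. Both are cut from a shared primary transcript that the erythroid factor GATA1 switches on. The hairpin of miR-451 is unusual in being processed by Argonaute 2 in place of Dicer, and miR-451 protects red cell precursors from oxidative stress. miR-486 lies within the gene of the red cell protein ankyrin 1 and is made in the erythroid lineage and in striated muscle. miR-223 marks neutrophils, monocytes and other myeloid cells, which enter an artery after injury. Red cells reach a piece of artery with the blood left in it or leaked into it, whereas white cells lie both in the blood and in the wall.

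The mature sequences show what the probes read and how the members are related. RefSeq sequences (GRCm38.p6) were matched for 2 of the 3 members and for miR-223, and capitals mark the seed, bases 2 to 8, which pairs with target messages:
miR-451a: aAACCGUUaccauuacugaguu
miR-144-3p: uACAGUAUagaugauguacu
miR-223-3p: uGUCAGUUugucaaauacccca
The array's miR-451 is miR-451a at chr11:78073186-78073207 and its miR-144 is miR-144-3p at chr11:78073047-78073066, both on the plus strand, while miR-223-3p lies at chrX:96242884-96242905. The 3 seeds differ from each other. The hairpins of miR-144 and miR-451 lie on the same strand with 99 bases between them, and capitals here mark the mature strand:
Mir144: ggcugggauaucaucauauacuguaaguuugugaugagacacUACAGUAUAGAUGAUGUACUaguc
Mir451a: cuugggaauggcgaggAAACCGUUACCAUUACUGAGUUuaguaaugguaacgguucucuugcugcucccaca
The mature strand takes bases 43 to 62 of the 66-base Mir144 hairpin, at chr11:78073005-78073070, and bases 17 to 38 of the 72-base Mir451a hairpin, at chr11:78073170-78073241, where it runs across the loop.

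Each member was read by 2 probes of 10 spots each, and all spots used were well above background on all 16 arrays. The brighter probe stood for the miRNA, and the log2 signals of its 2 probes correlated over the arrays at 0.98 for miR-451, 1.00 for miR-144 and 0.99 for miR-486. The median spread between spots of a probe on an array was 7.21%, 5.04% and 7.51% of the mean in the same order. Levels are given as log2 of the signal divided by the array's 75th percentile, so they compare arrays for 1 miRNA and not 1 miRNA with another. Over the arrays that percentile ran from 401 to 1432 intensity units, and 251 to 330 miRNAs were well above background, fewest in the uninjured group (251 to 292). The day 1 and day 7 arrays and 2 of day 28 were on 1 slide (slide 1), and the uninjured and day 14 arrays and the other 2 of day 28 on slide 2. Of the tissue's own markers, miR-143 and miR-145 of smooth muscle and miR-126-3p of endothelium were well above background on all 16 arrays. The other endothelial marker, miR-126-5p, was so on only 3, and its log2 level was at the floor of -5.79 throughout.

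miR-451 was bright in every artery and followed no steady course after the injury. Its log2 level was 5.28, 5.35 and 3.96 in the uninjured arteries, so the third control was 2.62 times lower than the brightest of its own group. Day 1 arteries held 4.73, 5.10 and 5.92, those of day 7 held 4.73, 4.41 and 3.87, and those of day 14 held 4.44, 3.87 and 4.59. At day 28 the level was 5.31, 4.58, 5.19 and 5.00. The lowest and the highest of all arrays, the third of day 7 and the third of day 1, differed 4.14-fold. Group means stood in the order day 1 (5.25 ± 0.61, SD), day 28 (5.02 ± 0.32), uninjured (4.86 ± 0.78), day 7 (4.34 ± 0.44) and day 14 (4.30 ± 0.38), and the arrays of each group overlapped with those of the next.

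miR-144, which is cut from the same transcript, gave nearly the same picture. Its log2 level was -0.32, -0.0046 and -1.60 in the uninjured arteries, and the third control was again the low one. Day 1 arteries held -0.34, 0.0015 and 0.77, those of day 7 held -0.68, -0.93 and -1.42, and those of day 14 held -1.08, -2.05 and -0.85. At day 28 it was 0.19, -0.72, -0.43 and -0.77. The third array of day 1 was the highest of all 16 and the second of day 14 the lowest, 7.05-fold apart. The order of the means was that of miR-451, from day 1 (0.14 ± 0.57, SD) through day 28 (-0.43 ± 0.44), uninjured (-0.64 ± 0.84) and day 7 (-1.01 ± 0.38) to day 14 (-1.33 ± 0.64), and neighbours in it overlapped.

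miR-486 differed from the other 2 members in the order of its group means. Its log2 level was -0.31, 0.16 and -1.48 in the uninjured arteries, with the third control low once more. Day 1 arteries held -1.68, -1.0 and -0.14, those of day 7 held -1.03, -1.73 and -2.47, and those of day 14 held -1.05, -1.64 and -1.23. At day 28 it was -0.61, -1.32, -0.45 and -0.34. The second uninjured array was the highest and the third of day 7 the lowest, 6.18-fold apart. The means ran from uninjured (-0.54 ± 0.85, SD) and day 28 (-0.68 ± 0.44) over day 1 (-0.94 ± 0.77) and day 14 (-1.31 ± 0.30) to day 7 (-1.74 ± 0.72), and the arrays of neighbours overlapped here too.

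miR-223 did the opposite, with small differences within groups and large ones between them. Its log2 level was 0.47, 0.59 and 0.33 in the uninjured arteries and 4.65, 4.52 and 4.53 at day 1. It was 3.88, 3.61 and 3.42 at day 7, 3.81, 3.49 and 3.10 at day 14, and 2.83, 2.90, 2.80 and 3.10 at day 28. All 13 injured arteries lay above all 3 uninjured ones.

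**Figure D1:**
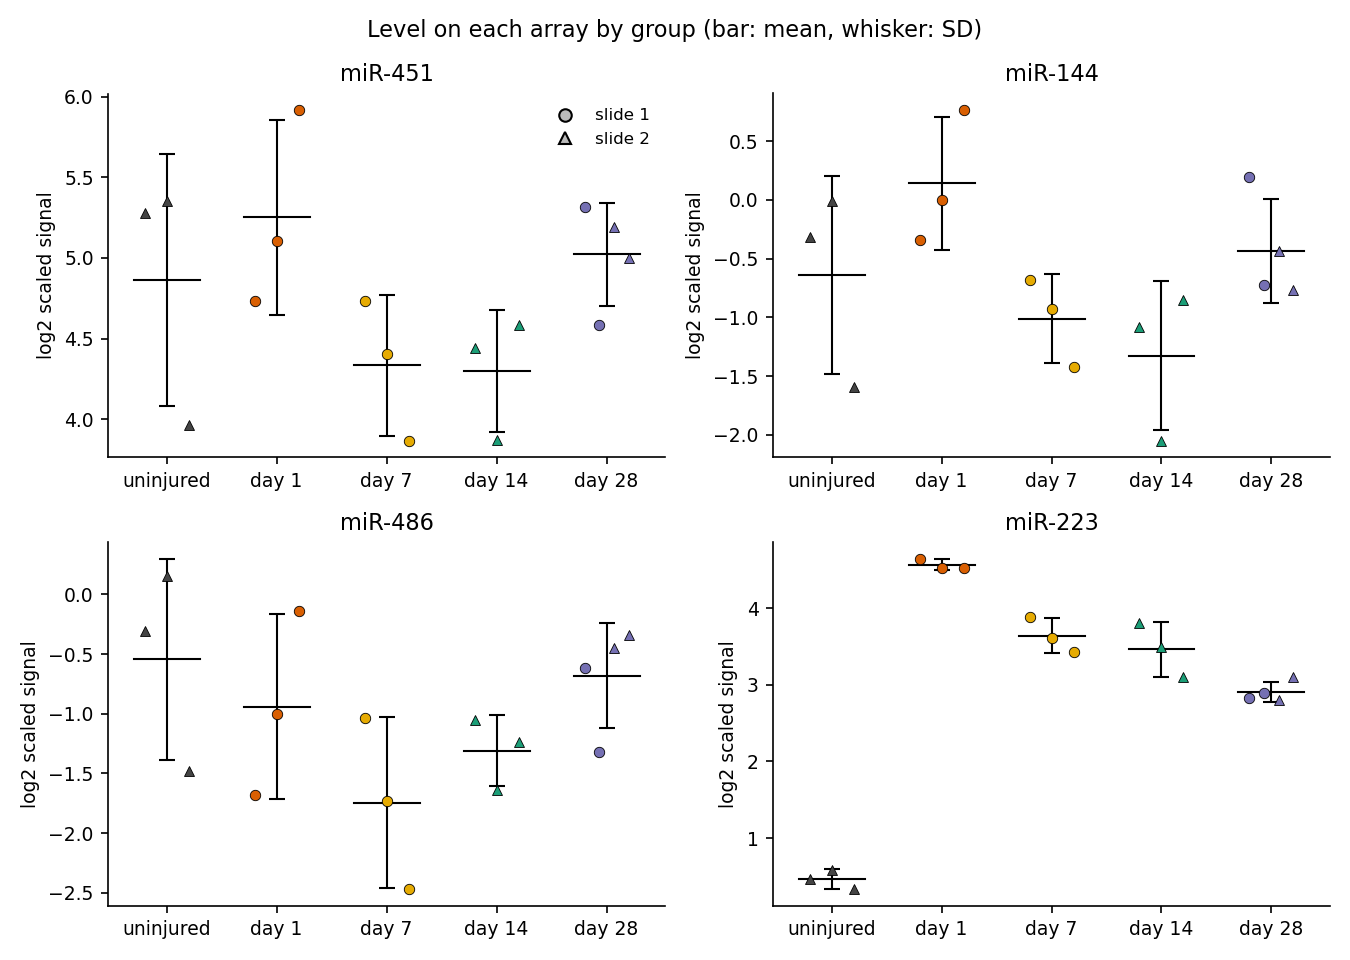
Log2 scaled signal (y axis) of miR-451, miR-144, miR-486 and miR-223 on each of the 16 arrays by group (x axis); points are arrays, circles slide 1 and triangles slide 2, bars group means and whiskers SD. The red cell miRNAs overlap between uninjured and injured arteries, with the third uninjured array low in each, while miR-223 lies between 2.80 and 4.65 in injured and between 0.33 and 0.59 in uninjured arteries.

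The spread between arteries of a group was wider for the red cell miRNAs than for most others. The pooled within-group SD of the log2 level was 0.52 for miR-451, 0.58 for miR-144 and 0.63 for miR-486, against a median of 0.28 over the 219 miRNAs well above background on all arrays. Ranked from the widest, miR-486 was number 24 of these 219, miR-144 number 32 and miR-451 number 42. miR-223, with 0.20, was number 154. With this spread the comparisons between groups are imprecise, as the intervals below show.

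No member passed the test at any day against the uninjured arteries (limma over 322 miRNAs, Benjamini-Hochberg adjusted p under 0.05), although of all miRNAs tested 32.3% passed at day 1 and 50% at day 7, and later on 39.1% (day 14) and 26.1% (day 28) did. For miR-451 the log2 difference from uninjured was 0.39 ± 0.40 (SE) at day 1, with a 95% interval from -0.47 to 1.24 (limma adjusted p = 0.467). It was -0.53 (-1.39 to 0.33) by day 7, -0.56 (-1.42 to 0.29) a week later and 0.16 (-0.64 to 0.96) by day 28. The intervals of day 7 and day 14 allow a fall larger than the SD of 0.78 among the controls. Those of day 1 and day 28 allow a rise larger than that SD. For miR-144 the difference was 0.78 (-0.18 to 1.75) after the first day and -0.37 (-1.34 to 0.59) after a week, then -0.69 (-1.65 to 0.28) by day 14 and 0.21 (-0.70 to 1.11) by day 28, with limma adjusted p from 0.2 to 0.782. Its arrays, like those of the other members, overlapped with the uninjured ones at each day, whereas 47.2%, 61.2%, 50.9% and 32% of all miRNAs did not overlap in the order of the days.

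miR-486 came nearest to a change, at day 7. Its difference from uninjured was -1.20 (95% interval -2.24 to -0.15) there, compared with -0.40 (-1.44 to 0.65) on day 1, -0.77 (-1.81 to 0.28) on day 14 and -0.14 (-1.11 to 0.84) by day 28. At day 7 the unadjusted p was 0.0277 and the limma adjusted p 0.054, and the arrays of day 7 and the control overlapped. That value depended on the processing: the limma adjusted p was 0.0254 with the scanner software's total gene signal and 0.0258 with the authors' value table, but 0.634 with the slide as a block, where the difference was -0.62. It was also the only one of the 12 differences from uninjured with an unadjusted p under 0.05. In the order of the days 135, 176, 151 and 126 of the 322 miRNAs tested had such a p. Over the alternative settings the day 7 difference of miR-486 ran from -1.44 to -0.24, with limma adjusted p up to 0.845. On leaving out 1 array in turn the limma adjusted p reached 0.217.

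The third uninjured artery weighed on these comparisons, since it was the lowest control in all 3 members. Without it the log2 difference at day 7 was -0.98 for miR-451 (limma adjusted p = 0.0363) and -1.67 for miR-486 (0.0106), and both then passed. For miR-486 at day 7 the same held on leaving out the first day 7 array (-1.56, limma adjusted p = 0.027) or the first or the third of day 1 (0.0448 and 0.041). At day 14 it was -1.01 for miR-451 (0.0465) and -1.17 for miR-144 (0.0484) without that artery. Its leukocyte signal did not stand apart, with miR-223 at 0.33, the lowest, against 0.47 and 0.59 in the other controls. Its array had 292 miRNAs well above background against 251 and 258 in the other controls. The 75th percentile was 624.1 against 401 and 538.4 intensity units. Whether these differences bear on the levels of the members was not tested. Within a group of 3 arrays it cannot be said which value is typical of the control.

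Between successive days the members kept the same wide intervals. From day 1 to day 7 the log2 level changed by -0.92 ± 0.40 (SE) for miR-451, -1.15 ± 0.45 for miR-144 and -0.80 ± 0.48 for miR-486, with limma adjusted p of 0.0749, 0.0517 and 0.19, while 43.2% of all miRNAs passed. The arrays of day 1 and day 7 did not overlap for miR-451 and miR-144, as for 62.1% of all miRNAs tested, and the unadjusted p was 0.0379 and 0.0227. With the authors' value table miR-451 (limma adjusted p = 0.0467) and miR-144 (0.0347) passed, and day 1 and day 7 lie on the same slide; within it miR-144 passed as well (0.0377). Leaving out the first day 1 array moved both past the threshold, to 0.0481 and 0.0424, and so did leaving out the third uninjured array, to 0.0343 and 0.0242. For miR-144 alone, leaving out the second uninjured array, the second or the third of day 14 or the first of day 28 did the same (0.0427 to 0.0469). Other alternatives weakened the step. Over the alternative settings it ran from -1.11 to -0.19 for miR-451 and from -1.34 to -0.43 for miR-144. The limma adjusted p reached 0.776 and 0.566 over these settings, and 0.269 and 0.183 on leaving out 1 array in turn.

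From day 7 to day 14 the differences of the members were -0.03, -0.32 and 0.43 in the order miR-451, miR-144 and miR-486, and 10.2% of all miRNAs passed while 36% had arrays that did not overlap. From day 14 to day 28 they were 0.72, 0.90 and 0.63, with limma adjusted p of 0.237, 0.198 and 0.421 against 15.5% of all miRNAs called. miR-144 was higher on every day 28 array than on any day 14 array, a separation that 24.5% of all miRNAs showed. The moderated F test over all 4 days gave limma adjusted p of 0.148, 0.0718 and 0.172 for the members, and 61.2% of all miRNAs passed it. Over all 7 comparisons none of the members passed, and the unadjusted p was under 0.05 in 3 of the 21 tests, those named above. Of all 322 miRNAs tested, between 82 (day 14 to day 28) and 176 (day 7 against uninjured) had an unadjusted p under 0.05 in a comparison. The members were thus not called more often than the background.

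miR-223 passed in all 4 comparisons with uninjured arteries in the same fit. It was higher by a log2 of 4.10 ± 0.17 (SE) at day 1, and the gap then narrowed over 3.18 ± 0.17 (day 7) and 3.00 ± 0.17 (day 14) to 2.44 ± 0.16 (day 28), with limma adjusted p from 1.46e-09 to 1.39e-07. In fold terms that is 17.2 times the uninjured signal at day 1 and 5.44 times at day 28. Of the list of 8 leukocyte miRNAs, miR-223 included, 6 rose at day 1 and 7 at each later day, and none fell at any of them. Over all miRNAs tested 19.6%, 27.6%, 20.2% and 16.8% rose in the order of the days, and 12.7%, 22.4%, 18.9% and 9.32% fell. Among them miR-142-3p, common to most white cells, rose by 3.07 at day 1 and by 2.29 at day 28.

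**Figure D2:**
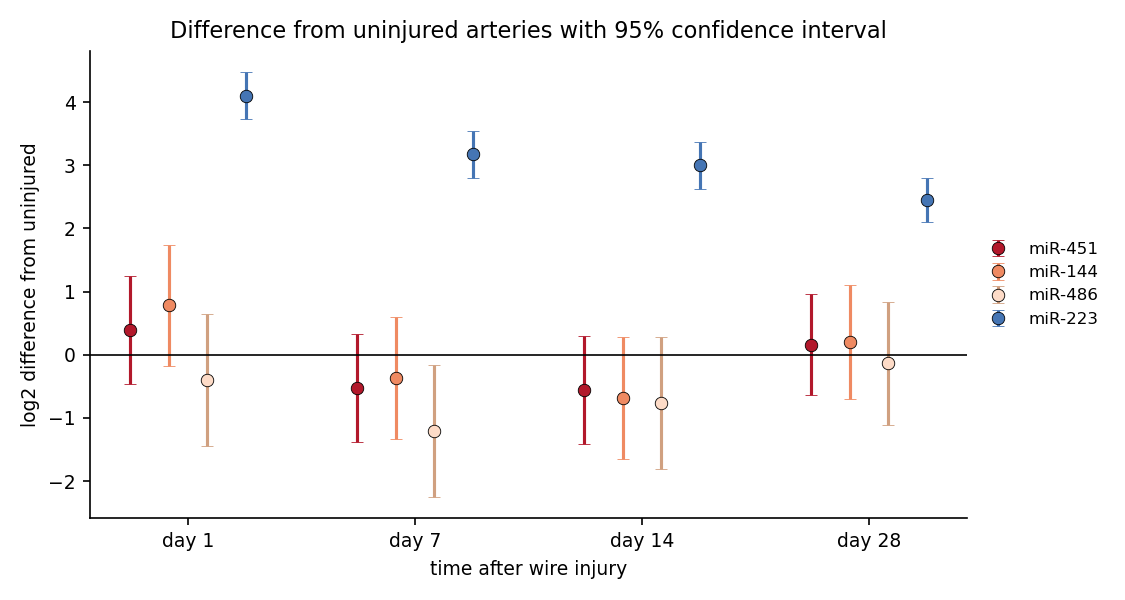
Log2 difference from uninjured arteries (y axis) at each day (x axis) for the red cell miRNAs and miR-223; points are limma estimates and whiskers 95% confidence intervals. All intervals of miR-451 and miR-144 include 0, while that of miR-486 at day 7 runs from -2.24 to -0.15, and those of miR-223 lie between 2.09 and 4.48.

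Taken over all days, no difference between injured and uninjured arteries was detectable in the red cell miRNAs. The mean of the 13 injured arteries minus that of the 3 uninjured ones was a log2 of -0.11 for miR-451, -0.001 for miR-144 and -0.59 for miR-486 (exact permutation test over 560 assignments, two-sided, p adjusted over 6 values 0.909, 1.0 and 0.289). This mean joins days with opposite signs for miR-451 and miR-144, such as 0.78 at day 1 and -0.69 at day 14 for miR-144. A value near 0 therefore does not show that each day was unchanged. For miR-486 the differences were negative at every day. Relative to miR-223 on the same array, a difference in which the scaling of the array cancels, the members were lower in injured arteries, with differences of -3.24, -3.13 and -3.71. For each of them all 13 injured arrays lay below all 3 uninjured ones, with an exact permutation p of 0.00357, the smallest that 13 against 3 arrays can give (adjusted 0.00714). The same separation was found for 93.8% of all 321 miRNAs set against miR-223, since miR-223 alone parts the groups, so it is not particular to the members. Within slide 2, with 5 injured and 3 uninjured arrays, the differences were -3.04, -3.19 and -3.19, again with the smallest p possible there (exact, 0.0357, adjusted 0.0714), as 98.1% of all miRNAs were apart there. Slide 1 holds no uninjured array.

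By day, the log2 level of miR-451 relative to miR-223 differed from that in uninjured arteries by -3.71, -3.70, -3.56 and -2.29 in the order of time. For miR-144 these values were -3.32, -3.55, -3.69 and -2.24, and for miR-486 -4.50, -4.37, -3.77 and -2.58. All 12 passed (limma adjusted p from 7.55e-08 to 0.00012), but so did 100%, 98.1%, 97.2% and 96.3% of all miRNAs, so the share of calls among the members is that of the background. On the plain scale the median log2 difference from uninjured was 0.39, -0.53, -0.69 and 0.16 for the 3 members in the order of the days, against 0.24, 0.0036, 0 and 0.036 over all miRNAs tested.

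Between day 14 and day 28 the members rose relative to miR-223. The gain was a log2 of 1.28 ± 0.37 (SE) for miR-451, 1.45 ± 0.42 for miR-144 and 1.19 ± 0.41 for miR-486, with limma adjusted p of 0.017, 0.017 and 0.0342, and 39.6% of all miRNAs passed in this comparison. It joins a fall of miR-223 by 0.56 to the higher levels of the members, which did not pass alone. That fall passed as fitted (limma adjusted p = 0.0346) but not with the slide as a block (-0.51, 0.149) or within slide 2 (0.22), nor on leaving out the first or the second day 14 array or replicate 1, 2 or 3 of day 28 (0.0631 to 0.189). With the slide as a block the gains were 1.31, 1.24 and 1.43, and the limma adjusted p 0.0558, 0.091 and 0.0552. Leaving out the first or the second day 14 array lifted the adjusted p of all 3 above the threshold, to between 0.0724 and 0.117, and for miR-486 so did leaving out replicate 1, 3 or 4 of day 28 (0.0652, 0.0809 and 0.0581). Day 1 to day 7 and day 7 to day 14 gave differences between -0.23 and 0.61 relative to miR-223, none of which passed, with 51.7% and 0% of all miRNAs called by limma in these steps (57 of 321 at an unadjusted p under 0.05 in the latter).

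**Figure D3:**
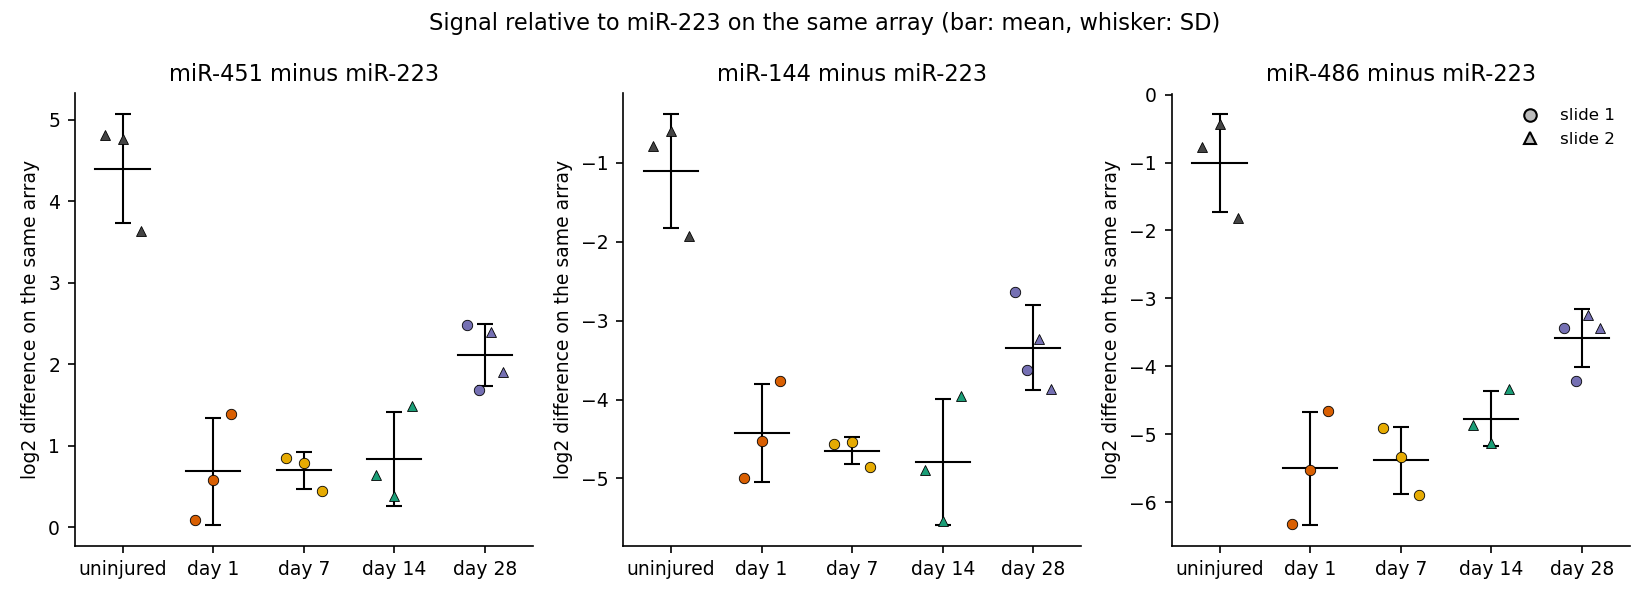
Log2 signal of each red cell miRNA minus that of miR-223 on the same array (y axis) by group (x axis); points are arrays, circles slide 1 and triangles slide 2, bars means and whiskers SD. For all 3 the uninjured arrays lie above every injured array, and day 28 is the nearest injured group to them, at 1.68 to 2.48 for miR-451 against 3.63 to 4.81 in uninjured arteries.

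The red cell miRNAs rose and fell together from artery to artery. Over the 16 arrays the log2 levels of miR-451 and miR-144 correlated with Pearson r = 0.95 and Spearman rho = 0.93, those of miR-451 and miR-486 with r = 0.86 and rho = 0.88, and those of miR-144 and miR-486 with r = 0.69 and rho = 0.70. The permutation p, adjusted over 6 correlations, was 0.00012, 0.00018 and 0.00672 for r and 0.00012, 0.00012 and 0.00624 for rho. Without the 2 arrays farthest from the median r was 0.93, 0.82 and 0.64. Within slide 1 it was 0.99, 0.96 and 0.91 and within slide 2 0.97, 0.96 and 0.93, each over 8 arrays. All values of an array share its scaling, and without any scaling r was 0.95, 0.84 and 0.69. With quantile normalization it was 0.94, 0.54 and 0.61, and that of miR-451 with miR-486 no longer passed (permutation, adjusted p = 0.0627).

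Once the group means were taken off, so that only differences between arteries of 1 group were left, r was 0.94 for miR-451 with miR-144, 0.94 for miR-451 with miR-486 and 0.80 for miR-144 with miR-486 (p from permutation within groups, adjusted over 6, 0.000772, 0.00386 and 0.00823). Here miR-486 followed miR-451 as closely as miR-144 did, although it lies elsewhere in the genome. Within groups a change of 1 log2 unit in miR-451 went with 1.07 ± 0.12 (SE) in miR-144 and 1.15 ± 0.14 in miR-486, slopes that differ from 1 by about their error or less. Both passed in a limma fit over the 321 other miRNAs (adjusted p = 0.000387 for each), in which 7.79% passed, and they were the only 2 of the 25 called miRNAs with a positive slope. Leaving out any array in turn kept the slopes between 1.0 and 1.1 for miR-144 and between 1.09 and 1.23 for miR-486. With quantile normalization that of miR-486 was 1.26 and did not pass (limma adjusted p = 0.141).

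The 23 negative slopes in that fit were led by miR-149 (-0.60) and miR-376a* (-0.62), and their number moved widely with the processing. With median scaling, without scaling and after normexp background correction limma called 0 negative and 2 positive slopes. With a replicate block 1 negative slope was left, 7 with the authors' value table and 22 with the slide as a block. With the 75th percentile over all probes 9 were called, all positive. Other settings called more negative slopes, 36 with means over probes (beside 3 positive), 29 with a floor 2 times as high and 28 with outlier spots kept.

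No such relation was detected for miR-223. Over the 13 injured arrays its r was 0.19 with miR-451, 0.32 with miR-144 and -0.07 with miR-486 (rho 0.01, 0.18 and -0.11; permutation p of r adjusted over 6 correlations 0.64, 0.43 and 0.813), and uninjured arrays were left out because they stand apart in miR-223. Without the 2 arrays farthest from the median r was -0.17, -0.04 and -0.24, and within slide 1 it was 0.35, 0.39 and 0.17, while the 5 injured arrays of slide 2 are too few. Its slope on miR-451 within groups was 0.07 ± 0.13 (limma adjusted p = 0.802).

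**Figure D4:**
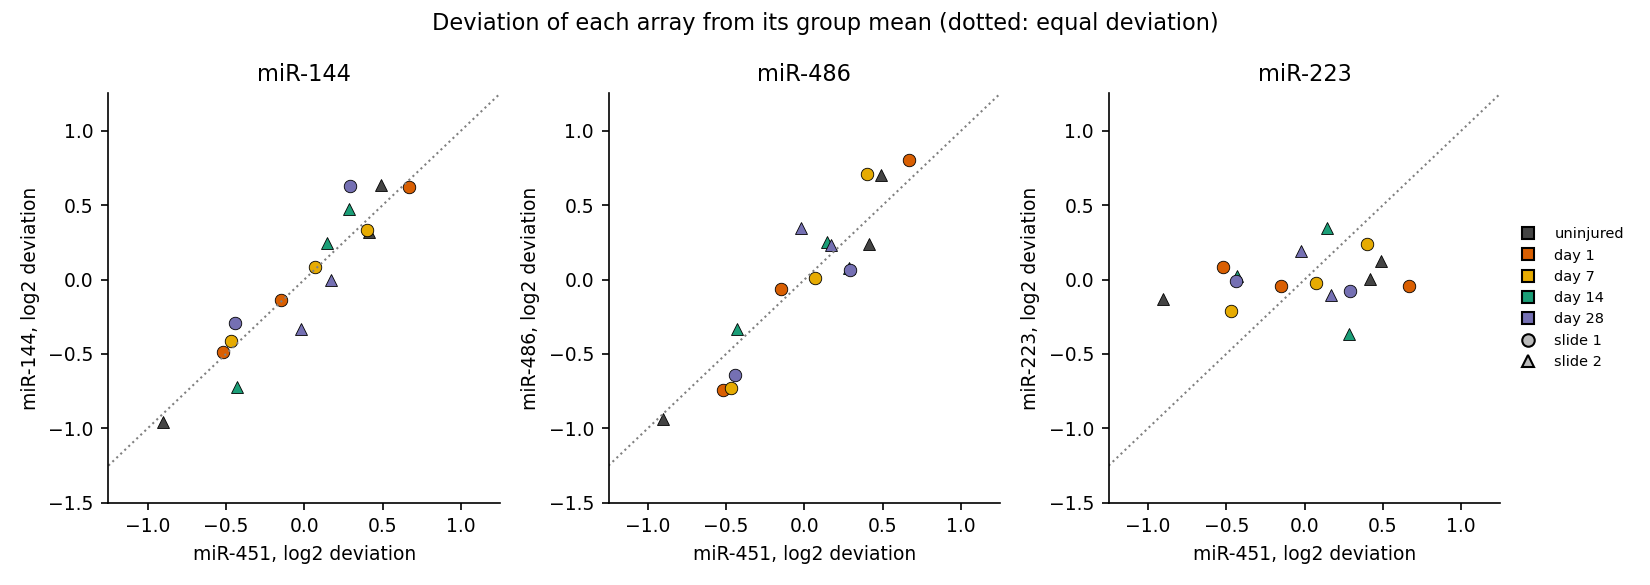
Deviation of each of the 16 arrays from its group mean in log2 units, for miR-144, miR-486 and miR-223 (y axis) against miR-451 (x axis); colours are groups, circles slide 1 and triangles slide 2, and the dotted line marks equal deviation. Points lie along the line for miR-144 (r = 0.94) and miR-486 (r = 0.94) and not for miR-223 (r = 0.18).

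Among all 218 other miRNAs well above background on every array, those most like miR-451 in level were miR-144, miR-486, miR-101a (r = 0.66), miR-106b (0.65) and miR-30c (0.63). For miR-144 they were miR-451, miR-365 (0.69), miR-486, miR-193 (0.67) and miR-101b (0.66), and for miR-486 miR-451, miR-29a (0.70), miR-144, miR-106b (0.68) and miR-30a (0.65). By deviations from the group means, miR-144 and miR-486 were again nearest to miR-451, followed by miR-106b (0.71), miR-374 (0.68) and miR-140* (0.65). From miR-451 the step thus goes from 0.94 for both members to 0.71 for the next miRNA. For miR-486 the order was miR-451 (0.94), miR-144 (0.80) and miR-106b (0.78), so here a miRNA that is no member lay close to miR-144, and for miR-144 the next after the members was miR-140 (0.63). These r are descriptions over the same 16 arrays, chosen as the highest of many.

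The ratio of miR-144 to miR-451 varied less than the level of either. Its log2 value spanned 0.85 over the 16 arrays, that of miR-486 to miR-451 1.22 and that of miR-486 to miR-144 1.77, where the levels spanned 2.05 to 2.82. Within groups the pooled SD was 0.20, 0.24 and 0.38 for these ratios against 0.52 to 0.63 for the levels. The log2 signal of miR-144 minus that of miR-451 on the same array was -5.60, -5.36 and -5.56 in uninjured arteries, -5.08, -5.10 and -5.15 at day 1, and -5.42, -5.34 and -5.29 at day 7. Day 14 gave -5.52, -5.92 and -5.44, and day 28 gave -5.12 and -5.31 on slide 1 and -5.63 and -5.77 on slide 2. Only changes in this difference between arrays can be read, since 2 probes are set against each other. The day 28 arrays parted by slide, and over all groups the arrays of slide 1 lay at or above -5.42 and those of slide 2 at or below -5.36, ranges that overlap slightly.

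For miR-486 minus miR-451 the values were -5.59, -5.19 and -5.44 in uninjured arteries, -6.42, -6.11 and -6.05 at day 1 and -5.76, -6.14 and -6.34 at day 7. Day 14 gave -5.50, -5.51 and -5.82, and day 28 gave -5.93 and -5.90 on slide 1 and -5.64 and -5.34 on slide 2. Day 1 and day 7 thus lay wholly below the uninjured arrays, but the day 28 arrays of slide 1 lay below those of slide 2 as well. Set against miR-451, miR-486 differed from uninjured by a log2 of -0.78 at day 1 and -0.67 at day 7. Neither passed (limma adjusted p = 0.409 and 0.285), while 2.49% and 16.8% of all miRNAs set against miR-451 did. With the slide as a block the differences were -0.36 and -0.25 (limma adjusted p = 0.933 and 0.973). How many of all miRNAs set against miR-451 had arrays wholly apart was not counted. Day 1 and day 7 are on slide 1 and the control is on slide 2, so for these days group and slide are tied only through the 4 arrays of day 28. In the fit of the plain levels with the slide as a block, the slide effect was 0.57 ± 0.60 (SE) for miR-486, -0.33 ± 0.56 for miR-144 and 0.15 ± 0.50 for miR-451. In that fit 0 of 322 miRNAs had a slide effect past the limma adjusted threshold (39 at an unadjusted p under 0.05). The slide effect on the signal relative to miR-451 was not tested.

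**Figure D5:**
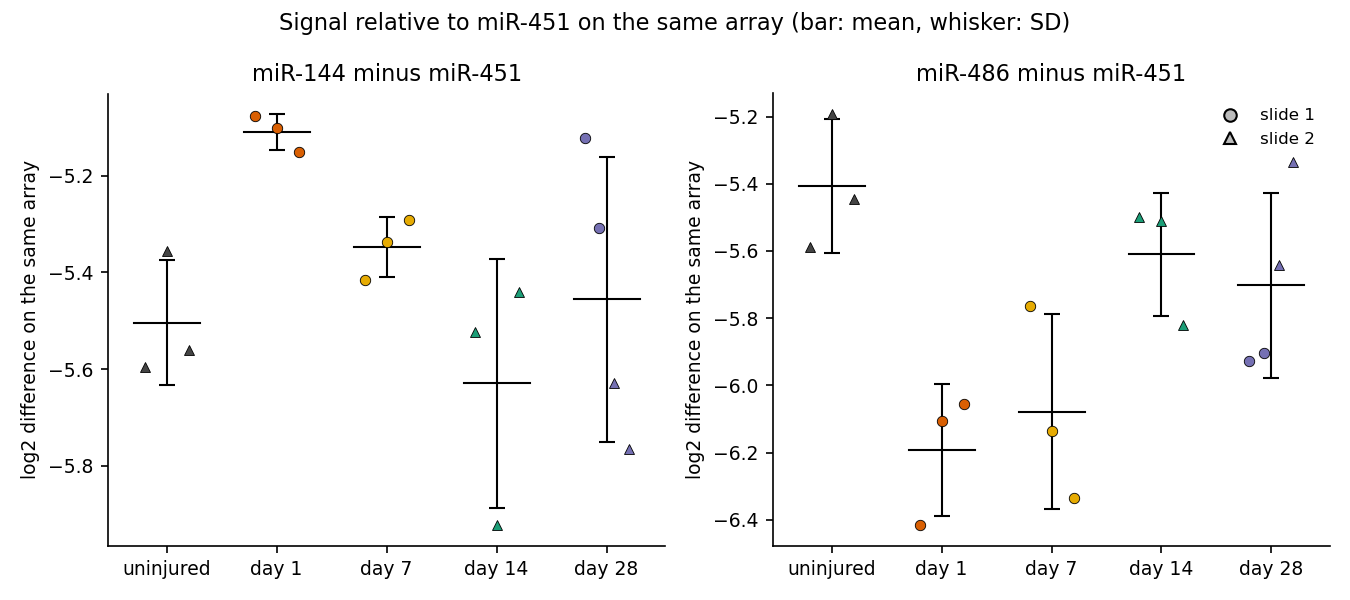
Log2 signal of miR-144 and miR-486 minus that of miR-451 on the same array (y axis) by group (x axis); points are arrays, circles slide 1 and triangles slide 2, bars means and whiskers SD. At day 28 the slide 1 arrays lie above those of slide 2 for miR-144 and below them for miR-486.

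Other miRNAs that are plentiful in red cells, but made in most tissues, did not follow the members closely. Of the 8 in this list 2 rose at day 1, 2 rose and 1 fell at day 7 and at day 14, and 3 rose and 1 fell at day 28, with a median log2 difference between 0.25 and 0.31 at the 4 days. The 2 of 8 at days 1, 7 and 14 stand against 19.6%, 27.6% and 20.2% of all miRNAs rising, and the 3 of 8 at day 28 against 16.8%. miR-93 rose by 0.88 at day 1 and miR-16 by 0.61 by day 28, while miR-107 fell by 0.80 at day 7. Their deviations correlated with those of miR-451 between -0.31 for miR-107 and 0.71 for miR-106b, with a median of 0.38.

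Muscle and leukocyte miRNAs were read beside miR-486 and the others. Of 7 striated muscle miRNAs 4 were tested, and miR-499, miR-208a and miR-208b were well above background on 0 arrays. Of the 4, none passed as higher at any day, while 1 passed as lower at day 7, 2 at day 14 and 3 at day 28. At day 28 miR-133a fell by 1.72, and over all miRNAs 22.4%, 18.9% and 9.32% fell at days 7, 14 and 28. The list did not move as one, since miR-206 differed from uninjured by -1.19, 0.96, 2.06 and 0.04 in the order of the days. None of these passed (limma adjusted p = 0.0733 at day 14). The log2 of the summed scaled signals of the 7 muscle miRNAs was 3.00 to 3.62 in uninjured arteries and 1.33 to 2.40 at day 28. In this sum the brightest probes weigh most. Deviations were set against those of miR-451 and not of miR-486, and for the 4 tested muscle miRNAs r ran from 0.27 to 0.51. For the 8 leukocyte miRNAs that range was -0.52 to 0.18. The part of muscle in the level of miR-486 was not tested, and in RNA of whole arteries fewer red cells and less miRNA per cell cannot be told apart.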

How the data were processed

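One-colour Agilent arrays of 16 arteries were analysed. The deposited scanner files hold spot intensity after background handling in Agilent Feature Extraction 9.5.1.1, per the file headers. The authors' deposited value table holds intensity on a linear scale for 610 miRNAs, within rounding the total gene signal of those files. Its column medians ran from 3.81 to 16.6, so it is not centred.

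Processed signals were averaged over spots without outlier marks, divided by the array's 75th percentile of the 395 mouse probes well above background on all arrays, set to a floor of 0.0181 and log2 transformed. Groups were compared with limma 3.58.1 (R 4.3.3) in 1 model over the 322 miRNAs that a whole group of arrays detected above background; the fit was tested on simulated data. Correlations used 100000 permutations (Python 3.11.15, scipy 1.17.1). The number of arrays limits the precision.

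Replicate numbers did not pair the arrays. The members and lists were chosen with earlier results of these data known. The fits relative to miR-223 or miR-451, the within-group slope and the permutation within slide 2 were added after seeing these data. Named besides the members were miR-223, up to 4 per list by smallest p and the 5 miRNAs most alike. Alternatives were other scalings, backgrounds, filters, floors, probe summaries, blocks, and each array left out.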

Additional observations from a re-analysis of the deposited data

Results flagged for a closer look

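Values that differed between days by a test of the difference itself were the following (limma, Benjamini-Hochberg adjusted p under 0.05). miR-223 changed by a log2 of -0.93 from day 1 to day 7 and of -0.56 from day 14 to day 28. The first did not pass with the 75th percentile over all probes (-0.44, limma adjusted p = 0.0672) or without scaling (-0.21, 0.702). The second did not pass with those settings (0.075 and 0.904), the slide as a block (0.149), the authors' value table (0.0571), only those groups fitted (0.114) or no filter (0.0543). Relative to miR-223 on the same array, miR-144 changed by 1.45, miR-451 by 1.28 and miR-486 by 1.19 from day 14 to day 28. No array of the day 28 group stood apart from the other 3 in a member or in miR-223 by Dixon's criterion, and groups of 3 were not tested.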

How the results depend on the processing

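Differences of the members between groups are small beside their spread, so their sign often turned with the processing, and where a value below changed sign or side of the threshold the cause was not tested. Values are log2 differences unless called r or a slope, and limma adjusted p follow in brackets.

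With the 75th percentile over all probes miR-451 at day 1 against uninjured was -0.25, its step from day 7 to day 14 was 0.033 and its r with miR-223 was -0.13. Median scaling gave -0.27 for miR-451 at day 1, -0.066 and -0.11 for miR-144 and miR-451 at day 28, -1.36 for miR-486 at day 7 (0.0295) and r = -0.22 for miR-451 with miR-223. Without scaling miR-144 and miR-451 were 0.59 and 0.44 at day 7, miR-451 was 0.10 at day 14 and miR-486 0.50 at day 28. Injured against uninjured was then 0.51, 0.63 and 0.041 for miR-451, miR-144 and miR-486. Quantile normalization gave 0.061 there for miR-451, -0.97 for its step from day 1 to day 7 (0.0317), r = 0.54 for miR-451 with miR-486 (permutation, adjusted 0.0627) and a slope of 1.26 for miR-486 (0.141). Over these settings the median difference of all miRNAs moved between -0.33 and 0.43 at day 1 and between -0.12 and 0.86 at day 7.

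Total gene signal and the authors' value table gave -1.44 and -1.42 for miR-486 at day 7 against uninjured (0.0254 and 0.0258). For the step from day 1 to day 7 they gave -1.33 and -1.34 for miR-144 (0.0361 and 0.0347) and -1.11 and -1.11 for miR-451 (0.0496 and 0.0467). They gave -0.14 and -0.10 for miR-144 and -0.20 and -0.15 for miR-451 at day 28, and 0.061 and 0.07 for miR-451 from day 7 to day 14. The table gave r = 0.064 for miR-486 with miR-223. With only the miRNAs detected on all arrays miR-486 at day 7 (-1.20, 0.0467) and the step of miR-144 from day 1 to day 7 (-1.15, 0.0473) passed, and the latter also with only those groups fitted (-1.15, 0.0309) and within slide 1 (-1.15, 0.0377). Means over probes turned miR-451 and miR-144 relative to miR-223, at -0.0022 from day 1 to day 7 and 0.064 from day 7 to day 14.

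With the slide as a block miR-486 was 0.18 at day 1 and 0.15 at day 28, and from day 7 to day 14 miR-144 was 0.018, miR-486 -0.14 and miR-144 relative to miR-223 0.28. The gains relative to miR-223 from day 14 to day 28 were 1.24, 1.31 and 1.43 for miR-144, miR-451 and miR-486 (0.091, 0.0558 and 0.0552), the same within slide 2 (0.149, 0.1 and 0.0945), and 1.45 for miR-144 with only those groups fitted (0.0521). Within slide 2 miR-486 at day 28 was 0.15, and injured against uninjured relative to miR-223 was -3.04, -3.19 and -3.19 (exact permutation, adjusted 0.0714).

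Arrays with the same replicate number did not deviate together: over 30 pairs of groups r ran from -0.45 to 0.56, with 8 above 0.1. A replicate block ended 1 call, the gain of miR-486 relative to miR-223 (1.14, 0.079). Replicate block and slide block together gave 0.42 and 0.29 for miR-486 at day 1 and day 28, -0.38 for it from day 7 to day 14, 0.15 and -0.043 for miR-144 and miR-451 relative to miR-223 there, and gains of 1.43, 1.47 and 1.53 from day 14 to day 28 (0.242, 0.183 and 0.212). For miR-223 with miR-486 r was 0.38 over deviations and 0.17 within slide 1, and without the 2 farthest arrays r with miR-451 and miR-144 was -0.17 and -0.039.

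Leaving out 1 array in turn moved miR-451 between -0.064 and 0.65 at day 1, -0.98 and -0.29 at day 7, -1.01 and -0.32 at day 14 and -0.29 and 0.40 at day 28. miR-144 moved between -1.17 and -0.33 at day 14 and -0.27 and 0.52 at day 28, and miR-486 between -1.67 and -0.84 at day 7 and -0.60 and 0.22 at day 28. From day 1 to day 7 the ranges were -1.40 to -0.84 for miR-144 and -1.18 to -0.58 for miR-451, and from day 7 to day 14 -0.55 to 0.045 for miR-144, -0.27 to 0.18 for miR-451 and -0.35 to 0.0099 for miR-223. Relative to miR-223 they were -0.51 to 0.11, -0.29 to 0.36 and -0.29 to 0.55 for miR-144, miR-451 and miR-486 from day 1 to day 7, -0.56 to 0.23 and -0.19 to 0.37 for miR-144 and miR-451 from day 7 to day 14, and 1.08 to 1.87, 1.05 to 1.61 and 1.01 to 1.41 for the gains to day 28. Injured against uninjured ran from -0.48 to 0.32 for miR-144 and -0.56 to 0.13 for miR-451.

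The number of miRNAs called ran over the alternatives from 10 to 122 against 104 as reported on day 1, from 45 to 166 against 161 a week after injury, from 72 to 135 against 126 by day 14 and from 21 to 94 against 84 by day 28, lowest with slide and replicate blocks or no scaling. From day 1 to day 7 it ran from 78 to 165 (139), and from day 7 to day 14 and day 14 to day 28 from 0 to 62 (33) and 0 to 56 (50), where limma without scaling left 31 and 19 at an unadjusted p under 0.05. The floor and outlier spots changed no call of a member, and miR-223 against uninjured passed under every alternative run. Signal was no limit for the members, but 3 or 4 arrays a group were.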
